A study of Mus musculus with 15 samples.

Results

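The 37 mitochondrially encoded genes of the mouse were followed across E0771 cells that carried an empty vector or a form of Malt1. They were taken as every row of the count table whose symbol starts with mt-, which gave 37 of 55571 rows: 2 ribosomal RNA genes, 13 protein genes and 22 transfer RNA genes. All 37 are on chromosome M of the GENCODE M21 annotation, 28 on the plus strand and 9 on the minus strand. E0771 is a mouse mammary carcinoma line, and the groups were a vector control, wild-type Malt1 (Malt1_WT), a Malt1 mutant that the labels call PD (Malt1_PD), and the substitutions Malt1_V87R and Malt1_L88D, with 3 libraries each. The cells of all 5 groups were grown without T cells, per the series title. MALT1 is a paracaspase and scaffold protein upstream of NF-kB. The columns assigned to Malt1_PD are named for a cysteine substitution, and the labels do not spell out PD. Nor do they tell a clone from a pool, or separate cultures from repeats of one. The p-values therefore set the differences between groups only against how far these libraries differ within a group, and that spread may be technical.

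Mitochondrial DNA is transcribed from both strands into long precursors, and excision of the transfer RNAs that lie between the other genes releases the ribosomal and messenger RNAs. The ribosomal RNAs build the mitochondrial ribosome, which translates the mitochondrial mRNAs into core subunits of respiratory complexes I, III, IV and V. All other subunits of these complexes, the proteins of that ribosome and the enzymes that transcribe and process mitochondrial RNA come from nuclear genes. Nearly all the protein genes and the ribosomal RNAs are read from 1 strand. The opposite strand carries mt-Nd6 and several transfer RNAs, among them mt-Tp.

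This layout is shown by the end of mt-Rnr1, the small-subunit ribosomal RNA, and the start of mt-Rnr2, the large-subunit one, with the valine transfer RNA mt-Tv between them in capitals (chrM:995-1123, plus strand, GENCODE M21 transcripts).

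mt-Rnr1, mt-Tv and mt-Rnr2: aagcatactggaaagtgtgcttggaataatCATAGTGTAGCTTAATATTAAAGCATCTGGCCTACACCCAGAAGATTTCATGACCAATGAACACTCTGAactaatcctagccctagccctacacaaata

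The flanking genes had 214184 and 79708 counts over the 15 libraries, and mt-Tv, which spans chrM:1025-1093, had 1. Coding genes can also overlap, as mt-Atp8 and mt-Atp6, subunits of the ATP synthase, do by 43 bases, shown in capitals (chrM:7897-7999, plus strand). A read in the overlap cannot be given to either gene alone.

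mt-Atp8 and mt-Atp6: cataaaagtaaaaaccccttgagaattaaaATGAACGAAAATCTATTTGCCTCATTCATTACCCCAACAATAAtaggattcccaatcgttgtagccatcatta

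Part of the mitochondrial genome also exists as a nuclear copy. On chromosome 1, 7 annotated pseudogenes between chr1:24611535-24616197 matched, gene by gene, a stretch of mitochondrial DNA at chrM:6390-11042 (GRCm38), with 2 differing bases in 4140 aligned. Aligned regions were kept from 60 bases and 90% identity. The stretch wholly contains mt-Co2, mt-Atp8, mt-Atp6, mt-Co3, mt-Nd3, mt-Nd4l and 5 transfer RNA genes, and it covers the end of mt-Co1 and the start of mt-Nd4. The opening 90 bases of mt-Co2, which encodes a core subunit of cytochrome c oxidase (chrM:7013-7102, plus strand), and of its chromosome 1 copy Gm28661 (chr1:24615476-24615565, minus strand) are identical, so no base is in capitals. Those of mt-Co1, the catalytic subunit of the same complex (chrM:5328-5417, plus strand), and its chromosome 2 copy Gm13340 (chr2:22589558-22589647, minus strand) differ at 3 bases, in capitals.

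mt-Co2: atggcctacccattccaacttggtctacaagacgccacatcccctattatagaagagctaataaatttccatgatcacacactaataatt

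Gm28661: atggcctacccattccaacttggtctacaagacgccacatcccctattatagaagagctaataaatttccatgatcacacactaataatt

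mt-Co1: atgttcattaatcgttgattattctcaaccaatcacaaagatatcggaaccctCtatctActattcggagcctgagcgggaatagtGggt

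Gm13340: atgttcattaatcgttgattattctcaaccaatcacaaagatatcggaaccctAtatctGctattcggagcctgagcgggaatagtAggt

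The 6 protein genes wholly inside the stretch had few counts. Their mean was 38.1 to 461.01 counts per kb of gene over the 15 libraries, and that of the 7 other protein genes was 22610.0 to 142951 counts per kb. Within a gene, the percentage of windows of 150 bases, the read length, that also occur exactly in an annotated nuclear transcript was 99.4% for mt-Co2, 99.4% for mt-Atp6, 99.8% for mt-Co3, 97.0% for mt-Nd3 and 98.0% for mt-Nd4l. It was 59.2% for mt-Nd4, 23.6% for mt-Co1 and 0% for mt-Nd1, mt-Nd2, mt-Rnr1, mt-Rnr2, mt-Nd5, mt-Nd6 and mt-Cytb. For mt-Atp8 it was 0% too, since the transcripts hold no annotated copy of it, although its neighbours on either side have one. The 7 chromosome 1 copies together had 1 count over the 15 libraries. How reads that match several places were counted is not given in the sources used here, and the part of the shared sequence in these low counts was not tested. Where the sequences are identical, reads of these genes and of their copies cannot be told apart.

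**Figure D1:**
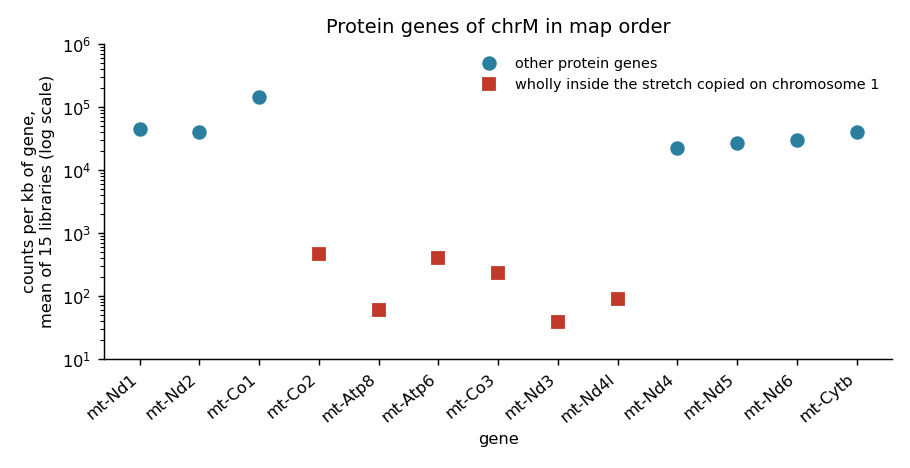
Mean counts per kb of gene over 15 libraries (y axis, log scale) for the 13 protein genes of chromosome M in map order (x axis). The 6 genes wholly inside the stretch that is copied on chromosome 1 (squares) lie between 38.1 and 461.01 counts per kb, all below the 7 others (circles), of which mt-Nd4 is the lowest at 22610.0.

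Library totals ran from 15471746 to 21458457 counts, and the 37 genes took 2.40% to 2.65% of them. Malt1 mRNA was at 28.1 ± 1.92 CPM (SD, n = 3) with the vector and between 202 ± 7.96 CPM (Malt1_WT) and 279 ± 1.35 CPM (Malt1_V87R) in the Malt1 groups. CPM are counts scaled to a library of 1000000 by TMM, and ± of a CPM is the SD over 3 libraries throughout. Of 8 epithelial markers only Krt8 and Epcam were abundant enough to be tested, and Cdh1, Krt18 and Krt19 were below 1 CPM in every group mean. This does not settle the labelled cell type in either direction.

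The mitochondrial ribosomal RNAs were lower in 3 of the 4 Malt1 groups. mt-Rnr1 (chrM:70-1024, plus strand) was at 997, 979.9 and 968 CPM in the vector libraries and at 491, 536 and 494 CPM in Malt1_WT. It was at 679, 662 and 713 CPM in Malt1_V87R and at 694, 618 and 652 CPM in Malt1_L88D. In Malt1_PD it was at 1041, 963 and 1055 CPM. The Malt1_WT libraries were the lowest and overlapped no other group, Malt1_V87R and Malt1_L88D overlapped each other between Malt1_WT and the vector, and Malt1_PD overlapped the vector. Against the vector mt-Rnr1 fell by 0.95 ± 0.04 (SE) on the log2 scale in Malt1_WT (edgeR's quasi-likelihood test with Benjamini-Hochberg adjustment, adjusted p = 6.4e-17), to 0.516 of its level. It fell by 0.52 ± 0.04 in Malt1_V87R (adjusted p = 3.8e-10) and by 0.59 ± 0.04 in Malt1_L88D (adjusted p = 3.1e-11). In Malt1_PD the log2 difference was 0.05, with a 95% interval from -0.03 to 0.14 (adjusted p = 0.33). In these bulk samples, fewer cells with the RNA and less RNA per cell cannot be told apart. How RNA was selected for the libraries is not given in the sources used here. Whether the libraries captured ribosomal RNA to the same extent was not tested.

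mt-Rnr2 (chrM:1094-2675, plus strand) followed the same order with smaller differences. Its CPM were 326, 339 and 323 with the vector, 213, 248 and 222 in Malt1_WT, and 345, 354 and 346 in Malt1_PD. They were 276, 277 and 265 in Malt1_V87R and 286, 248 and 248 in Malt1_L88D. The Malt1_L88D libraries reached down to the highest Malt1_WT library, and the Malt1_PD libraries were all above those of the vector. mt-Rnr2 fell by 0.53 ± 0.05 on the log2 scale in Malt1_WT (edgeR adjusted p = 3.8e-09), by 0.27 ± 0.05 in Malt1_V87R (adjusted p = 0.00057) and by 0.34 ± 0.05 in Malt1_L88D (adjusted p = 3.5e-05). The difference in Malt1_PD was 0.08 ± 0.05, with a 95% interval from -0.02 to 0.19, and was not called (edgeR adjusted p = 0.21). Per kb of gene, mt-Rnr1 stood above mt-Rnr2 in each group mean, at 1028 against 208 CPM per kb with the vector and 531 against 144 CPM per kb in Malt1_WT. The counts of mt-Rnr1 per count of mt-Rnr2 were 2.98 ± 0.088 with the vector, 2.93 ± 0.183 in Malt1_PD, 2.51 ± 0.154 in Malt1_V87R, 2.52 ± 0.107 in Malt1_L88D and 2.23 ± 0.073 in Malt1_WT.

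Direct comparison of the constructs placed the wild type below each mutant. mt-Rnr1 was higher than in Malt1_WT by 1.01 ± 0.04 on the log2 scale in Malt1_PD (edgeR adjusted p = 2.3e-16), by 0.43 ± 0.04 in Malt1_V87R (adjusted p = 2.3e-09) and by 0.37 ± 0.04 in Malt1_L88D (adjusted p = 5.6e-08). For mt-Rnr2 these differences were 0.61 ± 0.05, 0.26 ± 0.05 and 0.19 ± 0.05 (edgeR adjusted p = 2.7e-09, 0.00018 and 0.0037). The last was lost when only the 6 libraries of Malt1_L88D and Malt1_WT were fitted (adjusted p = 0.061) and without Malt1_L88D replicate 1 (adjusted p = 0.054). Between Malt1_V87R and Malt1_L88D the log2 difference was 0.07 for either ribosomal RNA, with 95% intervals from -0.02 to 0.15 for mt-Rnr1 and from -0.04 to 0.17 for mt-Rnr2. Malt1_PD was not tested against these 2 groups, and its libraries did not overlap theirs for either gene.

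**Figure D2:**
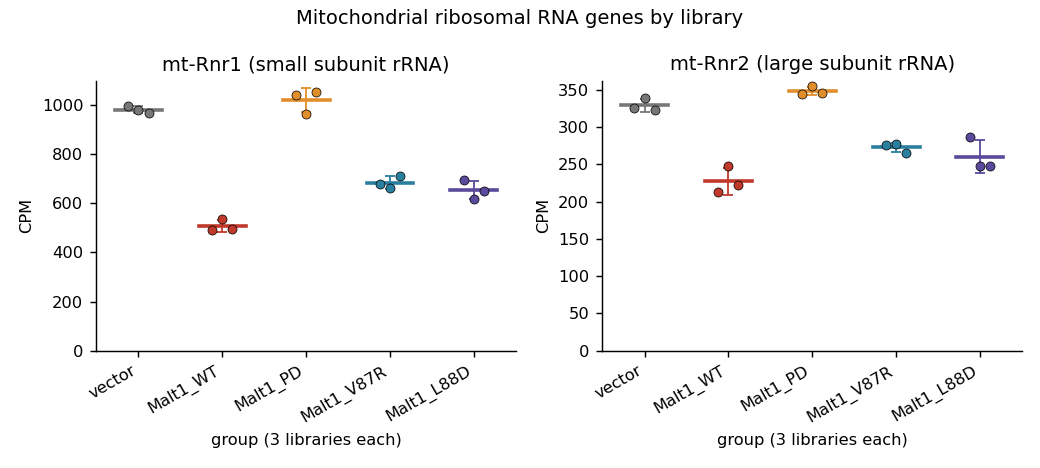
CPM of mt-Rnr1 (left) and mt-Rnr2 (right) on the y axis for the 5 groups on the x axis. Points are libraries, horizontal lines are means and bars are SD (n = 3). In both panels Malt1_WT has the lowest mean, at 507 and 227 CPM, and Malt1_PD lies at or above the vector, at 1019.65 and 348 CPM.

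Set against the protein genes of the same library, the ribosomal RNAs gave 5.60, 5.91 and 5.50 counts per 100 protein-gene counts with the vector. The values were 2.85, 3.04 and 2.91 in Malt1_WT and 5.58, 5.36 and 5.93 in Malt1_PD. They were 3.84, 3.68 and 3.97 in Malt1_V87R and 4.12, 3.66 and 3.68 in Malt1_L88D. Every Malt1_WT library was below every Malt1_V87R and Malt1_L88D library, and these in turn were below every vector and Malt1_PD library. The Malt1_WT mean was 51.8% of the vector mean, against 99.2% in Malt1_PD, 67.6% in Malt1_V87R and 67.4% in Malt1_L88D. These ratios were not tested, as they sum over several genes. They also depend on how RNA was selected for the libraries, so they are not ratios of the RNAs in the cells. The summed protein genes differed less, with means between 23154 ± 720.3 CPM (vector) and 25009 ± 635 CPM (Malt1_WT). The summed ribosomal RNAs were at 1311 ± 17.4 CPM with the vector and 734 ± 43.0 CPM in Malt1_WT. The largest single part of the protein sum was mt-Co1, which made up 45.8% of it with the vector and 54.1% in Malt1_WT. Without mt-Co1 the Malt1_WT ratio was 61.1% of that of the vector.

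**Figure D3:**
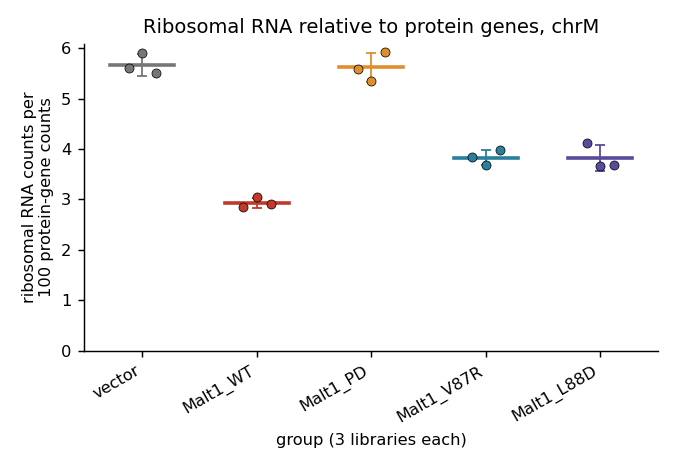
Counts of mt-Rnr1 and mt-Rnr2 together per 100 counts of the 13 protein genes (y axis) in each group (x axis). Points are libraries, lines are means and bars are SD (n = 3). The vector and Malt1_PD lie between 5.36 and 5.93, Malt1_V87R and Malt1_L88D between 3.66 and 4.12, and Malt1_WT between 2.85 and 3.04.

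The protein genes did not move as a block. The genes of complex I, the NADH dehydrogenase, went in both directions in Malt1_WT. mt-Nd6, its light-strand subunit (chrM:13552-14070, minus strand), was at 964, 839.8 and 903 CPM with the vector and at 708, 726 and 689.6 CPM in Malt1_WT. The groups did not overlap, and mt-Nd6 fell by 0.35 ± 0.04 on the log2 scale (edgeR adjusted p = 6.5e-08). It also fell in Malt1_PD by 0.17 and in Malt1_L88D by 0.14 (adjusted p = 0.0016 and 0.020). Malt1_PD overlapped the vector, with its highest library at 847 CPM. The Malt1_L88D call was lost without vector replicate 1 or 3 or Malt1_L88D replicate 1 or 2 (adjusted p from 0.076 to 0.25). In Malt1_V87R, at 897 ± 28.8 CPM against 902 ± 62.2 CPM, the log2 difference was -0.01 (95% interval from -0.10 to 0.08).

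mt-Nd1, a membrane-arm subunit (chrM:2751-3707, plus strand), was at 2643, 2356 and 2524 CPM with the vector and 1998, 2257 and 1995 CPM in Malt1_WT. It fell by 0.27 ± 0.05 on the log2 scale there (edgeR adjusted p = 3.5e-05) and by 0.18 ± 0.05 in Malt1_PD (adjusted p = 0.0026), without overlap in either case. mt-Nd5 (chrM:11742-13565, plus strand) was at 2605, 2736 and 2722 CPM with the vector, 2233, 2545 and 2244 CPM in Malt1_WT and 2477, 2504 and 2236 CPM in Malt1_PD. It fell in both groups, by 0.20 and 0.16 (adjusted p = 0.0013 and 0.0093). The Malt1_PD call of mt-Nd5 was lost without Malt1_PD replicate 3 (edgeR adjusted p = 0.097). mt-Nd2 (chrM:3914-4951, plus strand) fell in Malt1_WT from 2278 ± 54.1 to 2023 ± 118 CPM (log2 difference -0.17 ± 0.04, adjusted p = 0.0016) and was not called against the vector in the 3 mutant groups. Malt1_PD stood above Malt1_WT for this gene by 0.24 ± 0.04 (adjusted p = 0.00016).

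mt-Nd4 (chrM:10167-11544, plus strand) was the complex I gene that rose. It was at 1668, 1451.5 and 1604 CPM with the vector and 1824, 1773 and 1822 CPM in Malt1_WT, without overlap (0.20 ± 0.04 on the log2 scale, edgeR adjusted p = 0.00021). It also rose in Malt1_PD, which overlapped the vector (0.12 ± 0.04, adjusted p = 0.020), and in Malt1_V87R (0.14 ± 0.04, adjusted p = 0.027). Both of these calls were lost without vector replicate 2, the library with the lowest value (adjusted p = 0.17 and 0.19), as well as with upper-quartile scaling (adjusted p = 0.081 and 0.066). In Malt1_L88D the difference was 0.07 and was not called. The first 876 of its 1378 bases match the chromosome 1 copy Gm28439 without a mismatch. mt-Nd3 and mt-Nd4l, both inside the copied stretch, were at 0.896 and 1.13 CPM with the vector and were called in no comparison.

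The single mitochondrial gene of complex III, mt-Cytb (cytochrome b, chrM:14145-15288, plus strand), was at 2705, 2430.4 and 2536 CPM with the vector and 2447, 2628 and 2389 CPM in Malt1_WT, which overlapped (log2 difference -0.04, 95% interval from -0.12 to 0.04). Malt1_L88D was at 2340.2, 2343 and 2286 CPM. This was below every vector library, and mt-Cytb fell there by 0.14 ± 0.04 (edgeR adjusted p = 0.015), a call lost without vector replicate 1 (adjusted p = 0.20) among others.

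mt-Co1, the catalytic subunit of complex IV, cytochrome c oxidase, was the protein gene with the most counts per kb and rose in all 4 Malt1 groups. It was at 10665, 10258 and 10869.7 CPM with the vector and 13534, 13623 and 13395.5 CPM in Malt1_WT. Malt1_PD libraries were at 12147, 12697 and 12118 CPM, Malt1_V87R at 11951, 12172 and 11721 CPM and Malt1_L88D at 11732, 11747 and 12279.8 CPM. All 12 were above the 3 vector libraries, and the Malt1_WT libraries were above all others. The rise was 0.35 ± 0.03 on the log2 scale in Malt1_WT (edgeR adjusted p = 1.5e-10), 0.22 ± 0.03 in Malt1_PD (adjusted p = 1.5e-06), 0.17 ± 0.03 in Malt1_V87R (adjusted p = 0.00026) and 0.17 ± 0.03 in Malt1_L88D (adjusted p = 0.00026). Each mutant was lower than the wild type, by 0.13 to 0.18. Its chromosome 2 copy Gm13340, with 398 to 666 counts in a library, was at 25.4 ± 1.65 CPM with the vector and 29.1 ± 1.01 CPM in Malt1_WT and was not called (adjusted p = 0.11). For each 100 counts of mt-Co1 there were 23.7 ± 0.984 of mt-Nd1 with the vector and 15.4 ± 1.01 in Malt1_WT.

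The 4 remaining protein genes of complexes IV and V, mt-Co2, mt-Co3, mt-Atp6 and mt-Atp8, lie in the copied stretch and were called in no comparison. mt-Co2 was at 26.3, 13.5 and 17.6 CPM with the vector, and its spread within the group exceeded its difference from any other group. mt-Atp8 was at 0.537 ± 0.0883 CPM with the vector. Over the 4 comparisons with the vector the log2 differences of the 6 genes of the stretch ran from -0.78 for mt-Nd3 in Malt1_WT to 0.55 for mt-Atp8 in Malt1_V87R.

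**Figure D4:**
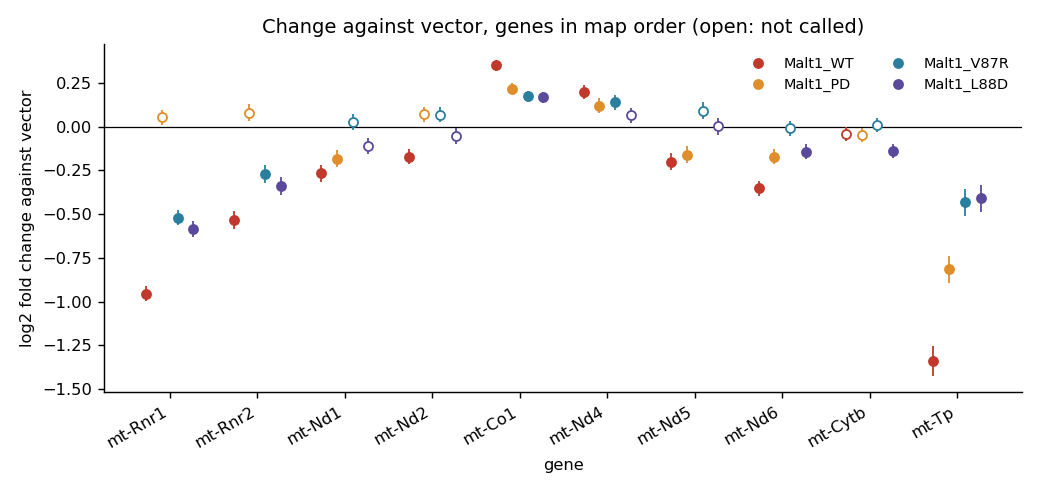
Log2 fold change against the vector (y axis) with its SE for the 2 ribosomal RNAs, 7 protein genes and mt-Tp in map order (x axis), in the 4 Malt1 groups by colour. Filled points passed the edgeR test and open points did not. In Malt1_WT mt-Co1 and mt-Nd4 lie above 0 at 0.35 and 0.20, and the ribosomal RNAs and mt-Tp lie lowest at -0.95, -0.53 and -1.34.

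Most transfer RNAs had too few counts. Of 22, 14 did not pass the filter, which needed 0.525 CPM, or 10 counts in a library of median size, in enough libraries for the smallest group. mt-Tf, mt-Ti, mt-Ts1, mt-Td, mt-Tk and mt-Tg were at 0 in all 15 libraries, and a 0 allows up to 3 counts in a library, counting error only. mt-Tv had 1 count in all, mt-Tr 2, mt-Tq 4, mt-Tt 4, mt-Tm 7, mt-Ta 10, mt-Ty 43 and mt-Tw 65. Of these, mt-Ts1, mt-Td, mt-Tk, mt-Tg and mt-Tr lie inside the copied stretch. The genes are 59 to 75 bases long, shorter than the reads of 150 bases, and the share of mature transfer RNA in these counts was not tested. The 8 that passed were mt-Tl1, mt-Tn, mt-Tc, mt-Th, mt-Ts2, mt-Tl2, mt-Te and mt-Tp.

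mt-Tp, the proline transfer RNA next to the control region, alone held 83.7% of the 11056 transfer RNA counts. It and the asparagine transfer RNA mt-Tn are shown because they had the smallest adjusted p among the transfer RNAs in Malt1_WT, with no base in capitals (chrM:15356-15422 and chrM:5089-5159, both minus strand, written 5′ to 3′).

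mt-Tp: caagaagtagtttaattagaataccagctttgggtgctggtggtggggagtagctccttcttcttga

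mt-Tn: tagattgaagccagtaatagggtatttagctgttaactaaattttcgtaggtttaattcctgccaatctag

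mt-Tp was at 46.2, 45.5 and 51.0 CPM with the vector and 20.99, 18.1 and 17.3 CPM in Malt1_WT. It was at 28.4, 27.3 and 25.4 CPM in Malt1_PD, 30.4, 38.6 and 36.7 CPM in Malt1_V87R and 34.1, 37.8 and 35.4 CPM in Malt1_L88D. Every Malt1 library was below every vector library and the Malt1_WT libraries were the lowest. The fall was 1.34 ± 0.08 on the log2 scale in Malt1_WT (edgeR adjusted p = 1.0e-13), 0.82 ± 0.08 in Malt1_PD (adjusted p = 1.2e-09), 0.43 ± 0.08 in Malt1_V87R (adjusted p = 0.00017) and 0.41 ± 0.08 in Malt1_L88D (adjusted p = 0.00030). So Malt1_PD, which was not called against the vector for the ribosomal RNAs, was below it for mt-Tp. For each 100 counts of mt-Nd6, which is read from the same strand, there were 5.28 ± 0.442 counts of mt-Tp with the vector and 2.66 ± 0.265 in Malt1_WT. The Malt1_PD, Malt1_V87R and Malt1_L88D values were 3.38 ± 0.173, 3.92 ± 0.360 and 4.38 ± 0.263. The library kit keeps strand, but the strand setting of the counting is not given in the sources used here. Reads of the opposite strand in mt-Nd6, mt-Tp or mt-Tn therefore cannot be told apart.

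mt-Tn had 54, 28 and 49 counts with the vector, 14, 14 and 7 in Malt1_WT and 57, 28 and 40 in Malt1_PD. It fell by 1.62 ± 0.30 on the log2 scale in Malt1_WT (edgeR adjusted p = 4.3e-05), with a log2 difference of 0.03 in Malt1_PD (95% interval from -0.45 to 0.52). The falls of 0.82 in Malt1_V87R and 0.95 in Malt1_L88D (adjusted p = 0.035 and 0.014) were each lost without vector replicate 1 (adjusted p = 0.16 and 0.079). A transcript of the nuclear gene Cep295 matches mt-Tn over all 71 bases at 91.5% identity.

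Of the other 6 that passed, mt-Th, mt-Ts2, mt-Tl2 and mt-Te reached the filter in 0 Malt1_WT libraries and were tested only through their counts in other groups. mt-Th, the histidine transfer RNA, had 21, 11 and 17 counts with the vector and 2, 1 and 5 in Malt1_WT (log2 difference -2.29, 95% interval from -3.43 to -1.15, edgeR adjusted p = 0.00090). In Malt1_PD and Malt1_L88D mt-Th reached the filter in 0 libraries as well, with 10, 2 and 6 and with 6, 3 and 8 counts. It passed through the vector and Malt1_V87R, where it was higher, so its calls support nothing. The Malt1_WT calls of mt-Tl2 and mt-Ts2, which passed through other groups in the same way, support nothing either. mt-Tl2, which decodes leucine, had 21, 11 and 26 against 5, 3 and 7 counts (adjusted p = 0.0024). mt-Ts2, which decodes serine, had 9, 11 and 17 against 3, 7 and 3 counts (adjusted p = 0.031), a call that was lost with DESeq2 (adjusted p = 0.059) and without vector replicate 3 (adjusted p = 0.15). mt-Te, mt-Tl1 and mt-Tc were called in no comparison.

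Counted over all 23 genes tested, 13 were called in the test across the 5 groups, against 61.0% of all 14571 genes tested. The 13 include mt-Th and mt-Tl2, which reached the filter in 0 Malt1_WT libraries and were tested through groups where they were higher. Against the vector, 2 rose and 11 fell in Malt1_WT, where 27.2% of all genes rose and 27.7% fell. Of the 11, mt-Th, mt-Ts2 and mt-Tl2 passed the filter through other groups alone, and without them the number is 8. mt-Th is likewise among those counted as fallen in Malt1_PD and Malt1_L88D. In Malt1_PD 2 rose and 5 fell (22.8% and 22.0% of all genes), in Malt1_V87R 2 rose and 4 fell (7.01% and 4.69%), and in Malt1_L88D 1 rose and 7 fell (8.97% and 8.43%). The 4 comparisons share the vector libraries. The Malt1_L88D count went from 8 to 4 without vector replicate 1 or 3 and to 5 without Malt1_L88D replicate 2, and mt-Nd6 and mt-Cytb were among the calls lost each time.

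Against Malt1_WT, 6 genes were higher and 1 lower in Malt1_PD, where 12.6% and 10.7% of all genes were. In Malt1_V87R 9 were higher and 1 lower (24.9% and 23.4%), and in Malt1_L88D 8 were higher and 3 lower (22.8% and 22.3%). mt-Th in Malt1_V87R and mt-Ts2 in Malt1_L88D are among the higher ones, both below the filter in every Malt1_WT library. Among the 9 was mt-Tn, with an edgeR adjusted p of 0.048. This call was lost in many settings, among them RLE scaling (adjusted p = 0.051), DESeq2 (adjusted p = 0.069) and limma-voom (adjusted p = 0.061). Without Malt1_WT replicate 3 its edgeR adjusted p was 0.23. mt-Co1 was a lower gene in each of the 3. The Malt1_L88D count went from 11 to 6 without Malt1_L88D replicate 1. Between Malt1_V87R and Malt1_L88D edgeR called 0 of the 23, as 0% of all genes. An unadjusted p under 0.05 was reached by 5 of the 23, beside 852 of all 14571 genes tested. These 5 include mt-Th, which reached the filter in 3 Malt1_V87R and 0 Malt1_L88D libraries. DESeq2 and limma-voom also called 0, with 5 of the 23 at an unadjusted p under 0.05 each, beside 591 and 899 of all genes. When only those 6 libraries were fitted, edgeR called 25 genes, of which 4 were mitochondrial: mt-Nd1, mt-Nd2, mt-Nd6 and mt-Cytb, all higher in Malt1_V87R by 0.12 to 0.15 on the log2 scale (adjusted p from 0.0022 to 0.033).

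Nuclear genes for the partners of these products mostly fell in Malt1_WT. Of the nuclear subunit genes tested, 28 of 35 fell and 0 rose for complex I, 7 of 8 fell for complex III, 8 of 10 for complex IV and 14 of 14 for complex V, where 27.7% of all genes fell. Their median log2 differences were -0.31, -0.27, -0.18 and -0.37, beside -0.01 over all genes tested. Ndufv2, a flavoprotein subunit of complex I, fell from 114 ± 4.85 to 84.3 ± 2.22 CPM. Uqcrh of complex III fell from 80.5 ± 8.55 to 47.5 ± 2.57 CPM, Cox6b1 of complex IV from 128 ± 6.62 to 97.8 ± 2.88 CPM and Atp5c1, the gamma subunit of the ATP synthase, from 267 ± 14.8 to 201 ± 4.03 CPM. Within complex IV, 0 of the 10 nuclear genes rose, and mt-Co1 rose by 0.35.

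**Figure D5:**
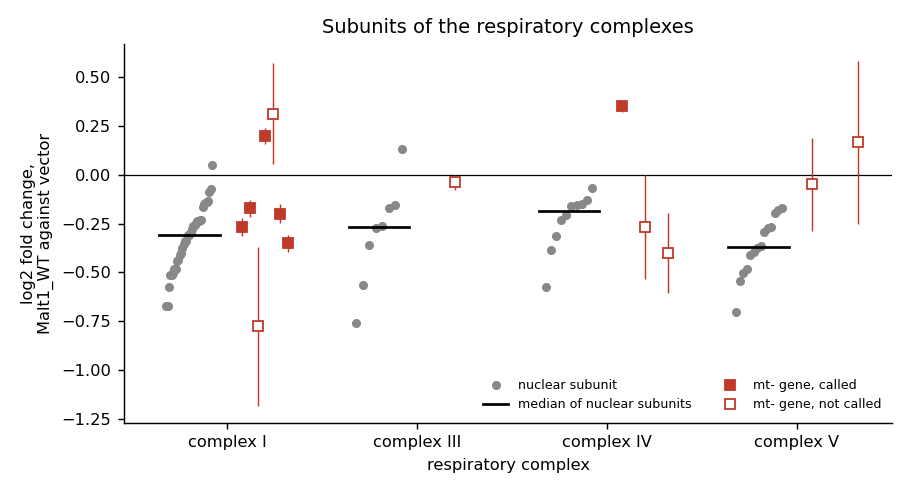
Log2 fold change of Malt1_WT against the vector (y axis) for subunits of respiratory complexes I, III, IV and V (x axis). Grey points are nuclear subunits with their median as a line, at -0.31, -0.27, -0.18 and -0.37, and red squares are mitochondrially encoded subunits with their SE, filled where called. mt-Co1 at 0.35 and mt-Nd4 at 0.20 are called squares above 0.

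In Malt1_PD, where 22.0% of all genes fell, 14 of 35 complex I genes fell and 1 rose, and 2 of 8, 1 of 10 and 7 of 14 fell for complexes III, IV and V. In Malt1_V87R, where 4.69% of all genes fell, the numbers that fell were 0, 1, 0 and 1. In Malt1_L88D, where 8.43% did, they were 5, 3, 3 and 5. Several of these numbers, such as 2 of 8 in Malt1_PD and 5 of 35 in Malt1_L88D, lie near the share of all genes. The proteins of the mitochondrial ribosome, which bind the ribosomal RNAs, fell in 17 of 26 cases for the small subunit and 34 of 47 for the large one in Malt1_WT, with 1 and 3 that rose (median -0.21 and -0.28), beside the same 27.7% of all genes that fell. Mrps6 fell from 43.7 ± 3.40 to 19.3 ± 0.267 CPM and Mrpl18 from 66.0 ± 3.10 to 39.6 ± 0.539 CPM. Picked by the same rule, Mrps18a went the other way, from 43.4 ± 3.99 to 51.0 ± 2.32 CPM. So did Mrpl39, from 50.6 ± 2.77 to 64.7 ± 2.82 CPM. In Malt1_PD, where the ribosomal RNAs were not called, 8 of 26 and 18 of 47 of these genes fell and 2 and 4 rose, the former near the 22.0% of all genes that fell. In Malt1_V87R, where both ribosomal RNAs fell, 4 and 4 fell and 0 and 1 rose, with 4.69% of all genes that fell. In Malt1_L88D, where both ribosomal RNAs fell as well, 7 and 12 fell and 0 and 1 rose, with 8.43% of all genes that fell.

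The enzymes that make and handle mitochondrial RNA are given beside the 27.2% of all genes that rose and the 27.7% that fell in Malt1_WT, and the counts of these small lists are not read as particular to them. Of 8 genes for mitochondrial transcription, 1 rose and 1 fell in Malt1_WT: Mterf3, of the termination factor family, rose from 25.5 ± 2.22 to 29.5 ± 0.399 CPM, and Polrmt, the mitochondrial RNA polymerase, fell by 0.39 on the log2 scale. Polrmt fell in the 3 mutant groups as well, by 0.25 in Malt1_PD, 0.36 in Malt1_V87R and 0.33 in Malt1_L88D, and Mterf3 also rose in Malt1_PD, to 31.5 ± 2.58 CPM. Of 17 genes for processing and modification, 3 rose and 6 fell in Malt1_WT, and Elac2, which cuts the 3′ end of transfer RNAs, rose from 79.7 ± 5.58 to 92.8 ± 3.34 CPM, while Trmt5, a transfer RNA methyltransferase, fell from 46.1 ± 2.87 to 35.4 ± 0.781 CPM. Of 14 for stability and decay, 1 rose and 1 fell. The latter was Rexo2, a mitochondrial oligoribonuclease, which fell from 40.2 ± 2.89 to 26.1 ± 0.663 CPM. Of 13 for replication and the nucleoid, 4 rose, such as the protease gene Lonp1 (from 290.4 ± 11.4 to 362 ± 15.8 CPM), and 4 fell, such as the exonuclease gene Mgme1 (from 21.1 ± 1.29 to 14.1 ± 2.79 CPM). Of 6 nuclear regulators, Esrra, a nuclear receptor of mitochondrial gene programmes, rose from 18.4 ± 0.307 to 28.5 ± 1.16 CPM, and 2 others, Pprc1 and Yy1, fell.

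Other measures also moved with the groups. The summed level of 10 macrophage markers was 26.8 to 28.7 CPM with the vector, 57.1 to 62.4 CPM in Malt1_WT, 60.6 to 64.8 CPM in Malt1_PD, 24.9 to 29.0 CPM in Malt1_V87R and 29.7 to 50.3 CPM in Malt1_L88D. Of its 7 members tested, 7 rose in Malt1_PD, 4 in Malt1_WT, 3 in Malt1_L88D and 0 in Malt1_V87R. The shares of all genes that rose there were 22.8%, 27.2%, 8.97% and 7.01%. Cd14 was at 8.03 CPM with the vector, 23.4 in Malt1_WT, 22.9 in Malt1_PD and 8.36 in Malt1_L88D, while Lyz2, outside the rule for named genes and chosen after its values were seen, was at 5.66, 4.64, 14.3 and 13.7 CPM in the same groups, from 5.49 to 19.5 CPM among the Malt1_L88D libraries. Ptprc, which marks all leukocytes, stayed at or below 0.295 CPM in every library. The 6 T and NK cell markers summed to at most 0.748 CPM. Of the fibroblast markers 4 were tested, of which 2 rose and 2 fell in Malt1_WT, and of the endothelial ones 3, of which 2 rose. Of all genes 27.2% rose and 27.7% fell there, and the counts of these small lists are not read as particular to them. Neat1, a nuclear-retained RNA, rose from 285 ± 25.2 to 474 ± 46.6 CPM in Malt1_WT and also in the other Malt1 groups, and Gm26917, taken as a sign of leftover ribosomal RNA, was at 413 ± 30.5 CPM with the vector, 406 ± 5.54 in Malt1_WT and 525 ± 75.5 in Malt1_L88D. Malat1, also nuclear, was called across the 5 groups (edgeR adjusted p = 0.026), at 625 ± 80.9 CPM with the vector and between 512 ± 19.8 CPM (Malt1_PD) and 722 ± 76.3 CPM (Malt1_L88D) in the Malt1 groups, and was not called against the vector in any Malt1 group. Gm26917 lies outside the rule for named genes and was chosen after its values were seen. How RNA was selected for the libraries is not given in the sources used here, and the part of these measures in the results was not tested.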

How the data were processed

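The authors deposited a table of unnormalised counts per gene symbol for 15 libraries of E0771 cells. Per the submitters' processing notes, the tools were STAR 2.7.3a, featureCounts 1.6.3 and Trim Galore 0.6.0, with the build GRCm38.p6. The labels name a directional kit and paired reads of 150 bases. The sources used here do not give the annotation, the strand setting or the handling of multiply mapped reads. Positions and sequences came from GENCODE M21, in which all 37 symbols were matched, and nuclear copies were found with blastn 2.17.0 against its transcripts.

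Genes were filtered with filterByExpr (minimum count 10, total 15), which left 14571. They were tested with edgeR 4.0.16 in R 4.3.3: TMM scaling (factors 0.973 to 1.02), a quasi-likelihood model (robust option) of the 5 group means over all 15 libraries, 8 two-sided comparisons and a test across the 5 groups, each adjusted by Benjamini-Hochberg over all genes with a threshold of 0.05. The common biological coefficient of variation was 4.61%. The test was tried on simulated data. Precision was limited by 3 libraries a group and, for the transfer RNAs, by counts. Named genes were all members, Malt1 as the check of the constructs and, from each list, up to 3 of those called across the 5 groups with the smallest adjusted p, of which some are printed. The members and lists were chosen with earlier results of these data known. Alternatives were RLE, upper-quartile and nuclear-only scaling, DESeq2 1.42.0, limma-voom (limma 3.58.1), no filter, only the 6 libraries compared, each library left out, and a replicate block.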

Additional observations from a re-analysis of the deposited data

How the results depend on the processing

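Of 62 calls of single mitochondrial genes in the 8 comparisons, 0 reversed under any alternative run, and 17 lost the call under at least 1. Of 1424 values, 1342 kept direction and call and 82 kept only the direction. Many of these values come from leaving out a library of a group that was not compared. Such a setting could hardly change the difference, so the 1342 overstates how far the calls were tried. The number called in Malt1_WT against the vector, 13, ran from 12 to 14 when each library was left out (2 rose each time, 10 to 12 fell). The other ranges were 6 to 7 for Malt1_PD (1 to 3 rose, 3 to 5 fell), 4 to 6 for Malt1_V87R (1 to 2, 3 to 4) and 4 to 9 for Malt1_L88D (1 rose, 3 to 8 fell). Against Malt1_WT they were 7 to 8 for Malt1_PD, 9 to 10 for Malt1_V87R and 6 to 11 for Malt1_L88D (5 to 8 higher, 1 to 3 lower). The rises in Malt1_PD went from 2 to 1 without vector replicate 2 or Malt1_PD replicate 1, with upper-quartile scaling and with only 6 libraries. Those in Malt1_V87R went from 2 to 1 without vector replicate 2 or any 1 Malt1_V87R library and under the same 2 settings. With only 6 libraries, 2 genes in place of 1 were lower in Malt1_V87R than in Malt1_WT, and 4 in place of 0 were higher in Malt1_V87R than in Malt1_L88D. The falls in Malt1_PD went from 5 to 3 without Malt1_PD replicate 3. The 5-group count of 13, which includes mt-Th and mt-Tl2, ran from 12 to 13.

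As a percentage of the vector, the ratio of ribosomal RNA to protein counts ran from 50.8% to 52.9% in Malt1_WT when a library was left out, from 96.5% to 101.5% in Malt1_PD, from 66.3% to 69.1% in Malt1_V87R and from 64.7% to 68.9% in Malt1_L88D. With mt-Rnr1 alone it was 47.7% in Malt1_WT. With mt-Rnr2 alone it was 63.8% in Malt1_WT, 76.5% in Malt1_V87R and 76.4% in Malt1_L88D. Without mt-Co1, an alternative chosen after seeing the data, it was 61.1% in Malt1_WT, 108.9% in Malt1_PD and 72.7% in Malt1_L88D. The transfer RNAs with too few counts numbered 13 if fewer than 10 counts in every library were asked for, and 17 with a mean under 10.

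Replicate numbers are shared by the groups. The deviations of 30 pairs of libraries with the same number correlated at -0.05 to 0.15 (median 0.02), with 2 pairs above 0.1, and those of 60 pairs with different numbers at -0.16 to 0.11 (median -0.01). For 10 of 15 libraries the nearest library of another group had the same number, which is a hint of pairing from the data and not from the design. The pairs did not all exceed 0.1, so the main fit did not pair the libraries, but whether they are paired was not tested. With the number as a replicate block, 13 genes were called in Malt1_WT against the vector and no call of the 62 was lost.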
